A study of Arabidopsis thaliana and Nicotiana benthamiana and Solanum lycopersicum with 20 samples.

Results

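The data described here are the ChIP-seq summits of the Arabidopsis thaliana transcription factors (TFs) GLK1 (AT2G20570) and GLK2 (AT5G44190) in leaves, 4 of the 20 libraries of the series, with 2 replicates of each TF. In ChIP-seq, cross-linked DNA is pulled down together with a protein and sequenced, and a summit is the point of highest enrichment of a region over a control. According to the study's methods, each TF was expressed from its cDNA as a fusion with a C-terminal GFP tag in plants that lack both genes (glk1/glk2 double mutant), and the chromatin of fully expanded leaves was pulled down with an anti-GFP antibody. All 4 libraries therefore share the double mutant background and a tagged, introduced TF, and the 2 proteins were studied in different transgenic plants, so that TF and line cannot be told apart. The series description states transient expression where the methods describe transgenic plants, and neither source used here gives the age of the plants or names the control of the peak calls. A site of a TF was defined as a pair of summits, 1 from each replicate, that are each other's nearest within 149 bp. A common site was defined in the same way between a GLK1 site and a GLK2 site. There were 9826 GLK1 sites, 15512 GLK2 sites and 8315 common sites, each of the latter with 1 fold change in each of the 4 libraries.

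GLK1 and GLK2 belong to the GARP family of plant TFs and are known as activators of the nuclear genes that build the chloroplast. Their best known targets encode the chlorophyll-binding antenna proteins (LHCA and LHCB), subunits of both photosystems and enzymes of chlorophyll biosynthesis. In Arabidopsis either gene alone is enough for green leaves, and only plants that lack both are pale, so both proteins are regarded as largely redundant. The question taken up here is where and how strongly the binding of both proteins differs.

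Short DNA words recur at the sites that separate the TFs, and a few sites are printed for them, each as the plus strand of TAIR10 (sequence from RefSeq), 50 bp to either side of the site. Capitals mark 4 kinds of words on either strand. They are the GLK words (GATT with an A or G before it and 2 pyrimidines, C or T, after it, such as AGATTCT), the G-box CACGTG that bHLH and bZIP factors bind, GATAAG as in the I-box of photosynthesis gene promoters, and CCAAT, the box of NF-Y factors. The sites are examples chosen for their words, and not every site with a large difference holds them. Those near PAP3 and DET3, higher in GLK2, had no GATAAG within 50 bp. Those near RAV1 and at MRU1, higher in GLK1, had it. The first group holds sites with a higher signal in GLK2 that have GATAAG (or its reverse, CTTATC) near the summit.
near AT4G01460, chr4:616141-616241: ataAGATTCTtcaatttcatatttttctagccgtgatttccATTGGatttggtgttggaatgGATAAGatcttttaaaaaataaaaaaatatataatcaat
near ESL1, chr1:2866550-2866650: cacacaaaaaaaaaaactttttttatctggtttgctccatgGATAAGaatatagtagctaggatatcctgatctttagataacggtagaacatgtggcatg
near AT5G59080, chr5:23850136-23850236: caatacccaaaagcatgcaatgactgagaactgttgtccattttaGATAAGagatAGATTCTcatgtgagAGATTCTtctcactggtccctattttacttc
near AT5G50310, chr5:20473432-20473532: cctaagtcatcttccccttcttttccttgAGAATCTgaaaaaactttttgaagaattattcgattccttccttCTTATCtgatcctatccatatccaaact
At the sites of 2 chlorophyll biosynthesis genes, which overlap transcribed sequence and are therefore shown as 30 bases only, the word lay 2 bp (CHLM) and 5 bp (GUN4) from the middle of the site.
CHLM, chr4:12876905-12876934: ctccttccctatCTTATCcaggataacgat
GUN4, chr3:21949746-21949775: gaagaagagaaaGATAAGgtgtgtggaaaa
The second group holds sites with a higher signal in GLK1, chosen because they have CACGTG or CCAAT (or its reverse, ATTGG).
near AGL21, chr4:17840207-17840307: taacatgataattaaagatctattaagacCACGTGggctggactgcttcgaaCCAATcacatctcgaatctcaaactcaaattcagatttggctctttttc
near JRG21, chr3:20771895-20771995: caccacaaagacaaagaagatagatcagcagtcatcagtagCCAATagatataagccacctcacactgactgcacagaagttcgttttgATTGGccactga
near AT4G16660, chr4:9376572-9376672: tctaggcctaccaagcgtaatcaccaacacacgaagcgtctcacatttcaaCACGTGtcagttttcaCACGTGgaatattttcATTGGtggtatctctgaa
BBX16, chr1:27778357-27778457: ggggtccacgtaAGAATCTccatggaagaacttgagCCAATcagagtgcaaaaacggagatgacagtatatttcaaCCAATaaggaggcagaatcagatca
COL4, chr5:8589250-8589350: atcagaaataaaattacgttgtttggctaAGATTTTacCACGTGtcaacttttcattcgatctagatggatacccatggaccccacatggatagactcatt
The last one, that of the chlorophyll gene CAO, was not called different.
CAO, chr1:16851303-16851403: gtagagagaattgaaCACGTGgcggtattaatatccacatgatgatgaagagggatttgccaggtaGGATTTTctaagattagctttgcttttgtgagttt

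The GLK1 lists held 15576 and 13934 summits (replicates 1 and 2) and the GLK2 lists 22900 and 22143, of which between 67.9% and 74.4% had a summit of the other replicate of the same TF within 149 bp. The highest fold change over the control was 210.2 and 181 in GLK1 against 93.6 and 88.6 in GLK2, so the GLK1 lists were shorter and reached higher. The study gives a range of read numbers over its Arabidopsis libraries but not the depth of each, so differences in list length and range between the TFs cannot be told apart from depth. Inside the GLK2 gene (chromosome 5, 17798262 to 17800926) both GLK2 libraries had 3 summits, in coding exons and an intron, and both GLK1 libraries had none. Inside the GLK1 gene (chromosome 2, 8855302 to 8857758) there were 2 and 1 summits in the GLK1 libraries and 1 and 2 in the GLK2 libraries, all in coding exons. The highest of each library was 3.98 and 2.47 in GLK1 (ranks 4243 and 8916) against 2.15 and 2.01 in GLK2 (ranks 16749 and 17486). The summits in the GLK2 gene follow the labels. In the GLK1 gene the presence of summits does not separate the TFs, and the highest fold changes were larger in GLK1.

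Both TFs bound largely the same places. Of the GLK1 sites, 84.6% (95% Wilson interval 83.9 to 85.3%, which covers counting error only) were common sites, and of the GLK2 sites 53.6% (52.8 to 54.4%). Leaving out GLK1 replicate 1 or 2, so that every summit of the other library counts as a site, changed the first share to 69.4% and 66.2%. The summits of both TFs at a common site lay about as far apart as those of replicates. Their median distance was 30 bp in replicate 1 and 33 bp in replicate 2, against 32 bp between the GLK1 replicates and 28 bp between the GLK2 replicates.

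The share of common sites followed the signal of the site. All of the 100 GLK1 sites with the best mean rank, and all of the 100 best GLK2 sites, were common sites. Of those after place 1000 and up to 3000, 94.6% of the GLK1 sites and 91.8% of the GLK2 sites were common. Beyond place 6000 the shares were 74.6% of 3826 GLK1 sites and 33.7% of 9512 GLK2 sites. The shares of both TFs were within 10 percentage points of each other down to place 6000. Beyond it they are not like for like, as the GLK1 sites end at place 9826 and the GLK2 sites at place 15512. Of the 100 best GLK1 sites, 74 were also among the 100 best of both GLK2 lists and 2 were beyond place 500 in both. Of the 100 best GLK2 sites, 72 were among the 100 best of both GLK1 lists and 2 were beyond place 500 in both, which were also beyond place 1000.

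**Figure D1:**
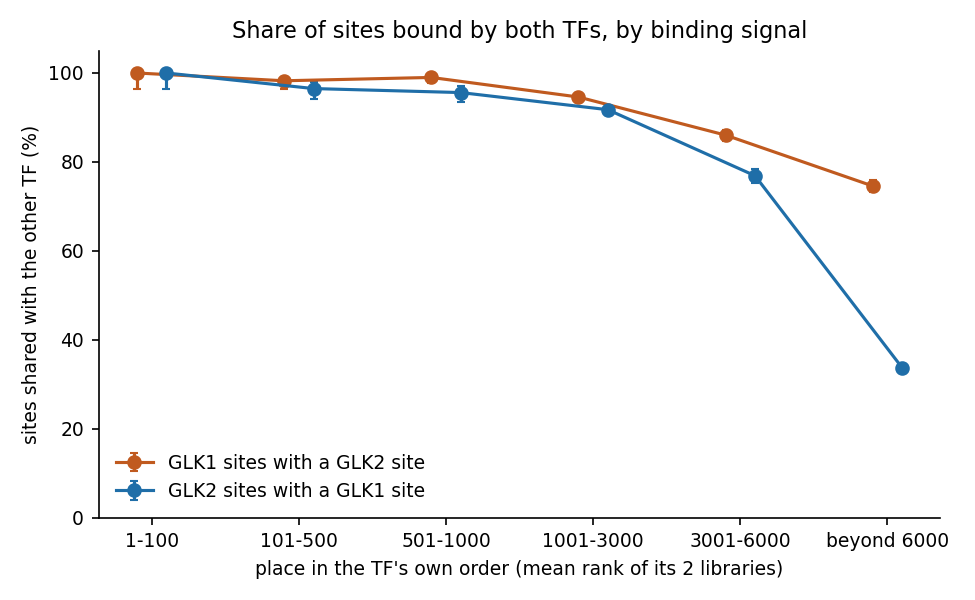
Percentage of the sites of GLK1 (orange) and GLK2 (blue) that are common sites (y axis), by the place of the site in the order of the TF's own mean rank (x axis); points are shares and bars 95% Wilson intervals. Both TFs start at 100% among their best 100 sites, and beyond place 6000 GLK1 is at 74.6% and GLK2 at 33.7%. This last step ends at place 9826 for GLK1 and at place 15512 for GLK2.

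Sites of 1 TF without any summit of the other within 149 bp, in either of its lists, were few among GLK1 sites (395, 4.02%) and more frequent among GLK2 sites (3755, 24.2%). Without GLK1 replicate 1 or 2 there were 1564 and 1909 such GLK1 sites, and without GLK2 replicate 1 or 2 there were 8164 and 8464 such GLK2 sites (5729 without GLK1 replicate 1). In the lists of both replicates these sites were weak. The GLK1 ones had a median fold change of 2.73 and 2.47 (replicates 1 and 2), against 3.69 and 3.21 at the common sites, and the GLK2 ones of 2.29 and 2.24, against 3.54 and 3.38. Only 2 such GLK1 sites and 5 such GLK2 sites were among the first 1000 of both lists of their TF. Many of the 395 lay just outside the window. In 130 of them no GLK2 summit was within 500 bp, and in 85 none was within 1000 bp, whereas of the 3755 GLK2 sites 2513 and 1961 were that far from any GLK1 summit.

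The strongest of the GLK2 sites without GLK1 was at position 17182469 of chromosome 3, in the 5′ UTR of AT3G46630 and 573 bp upstream of LUX, a component of the evening complex of the circadian clock. Its fold change was 15.2 and 15.5 (ranks 170 and 144), and the nearest GLK1 summit was 383 bp away. The next site was at position 8939042 of chromosome 2, 1791 bp upstream of EXPB1, which encodes a beta-expansin, a protein that loosens cell walls. It reached 12.4 and 11.0 (ranks 244 and 265), with the nearest GLK1 summit at a distance of 3740 bp. The third, at position 6881181 of chromosome 4, was upstream of AT4G11310 with 9.08 and 9.36, again far (1178 bp) from any GLK1 summit. The remaining 2 of the best 5 (near AT4G13490 and AT4G16563) had a GLK1 summit at a distance of 210 and 197 bp. The strongest GLK1 site without GLK2 was at position 16052477 of chromosome 2, 2559 bp downstream of the start of PYL4, an abscisic acid receptor gene. Its fold change was 16.8 and 14.2 (ranks 244 and 247), and a GLK2 summit lay 231 bp away. The other 4 of the best 5 GLK1 sites were near AT4G16563, AT3G25880, GBF2 (a bZIP factor that binds the G-box) and AT2G04495, with fold changes between 5.84 and 10.8 and a GLK2 summit at 156 to 174 bp. So among the best 5 of either TF, only GLK2 had sites more than 1 kb from the other TF.

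At the common sites, the strength of binding separated the TFs more than it separated replicates. Spearman's rho of the fold changes across the 8315 sites was 0.807 between the GLK1 replicates and 0.849 between the GLK2 replicates, and 0.695 to 0.705 between libraries of different TFs. Among the 2000 sites with the best mean rank over the 4 lists it was 0.853 and 0.849 between replicates and 0.523 to 0.549 between TFs. These are correlations across sites, which are not independent and share the genome sequence. Whether the libraries share a control is not given in the sources used here.

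Because the fold changes of GLK1 and GLK2 cover different ranges, they were brought to 1 distribution by quantile normalization of their log2 values before they were compared. A log2 difference (GLK1 minus GLK2) therefore says how far a site stands higher in the order of one TF than in that of the other. In limma's moderated test over all common sites, 531 sites (6.39%) were higher in GLK1 and 490 (5.89%) higher in GLK2 at a Benjamini-Hochberg adjusted p of at most 0.05. With 2 libraries per TF an exact permutation test of 1 site cannot go below p = 0.333, so the calls rest on the spread that limma shares between sites. Leaving out GLK2 replicate 1 or 2 gave 353 and 295 sites higher in GLK1 and 289 and 239 higher in GLK2. When each library was only shifted to the same median, 765 sites were higher in GLK1 and 344 in GLK2. The median ratio of the GLK1 to the GLK2 fold change was 1.51 (replicate 1) and 1.296 (replicate 2) at the 100 strongest common sites, and 1.07 and 0.977 over all. All of the 531 sites were called in the same direction after this shift, as were 339 of the 490, and 2 of the latter were called in the other direction. Also in the deposited values, on which the calls rest, both fold changes of the TF were above both of the other at all of the 531 sites and at 439 of the 490. This compares with 2275 (GLK1) and 1844 (GLK2) of all 8315 common sites. At 5 of the 490 sites both GLK1 fold changes were above both of GLK2.

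The difference was 2-fold or more (1 on the log2 scale) at 92 of the sites higher in GLK1 and at 81 of those higher in GLK2. Calls were most frequent at the strongest sites, where smaller differences could be called. The SE was 0.06 at HCF107, one of the strongest sites, which was called at −0.21. At the weaker site of TOC1 it was 0.18, and a difference of 0.51 was not called. The shares below therefore count calls and do not measure how often binding differs. Of the 100 sites with the best mean rank 61% were called (26 higher in GLK1, 35 higher in GLK2), of those after place 500 and up to 2000 20.7%, and of those beyond place 5000 4.53%. By ranks alone, both ranks of GLK1 were better than both of GLK2 at 2623 common sites (31.5%). Both of GLK2 were better at 1935 (23.3%), so that ranks did not overlap at 54.8% of all common sites. These ranks are places in whole lists, and the GLK2 lists are longer. With ranks among the common sites only, the counts were 2170 (GLK1) and 2222 (GLK2). In a random order of the 4 libraries, ranks of 2 against 2 would not overlap with probability 0.333.

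**Figure D2:**
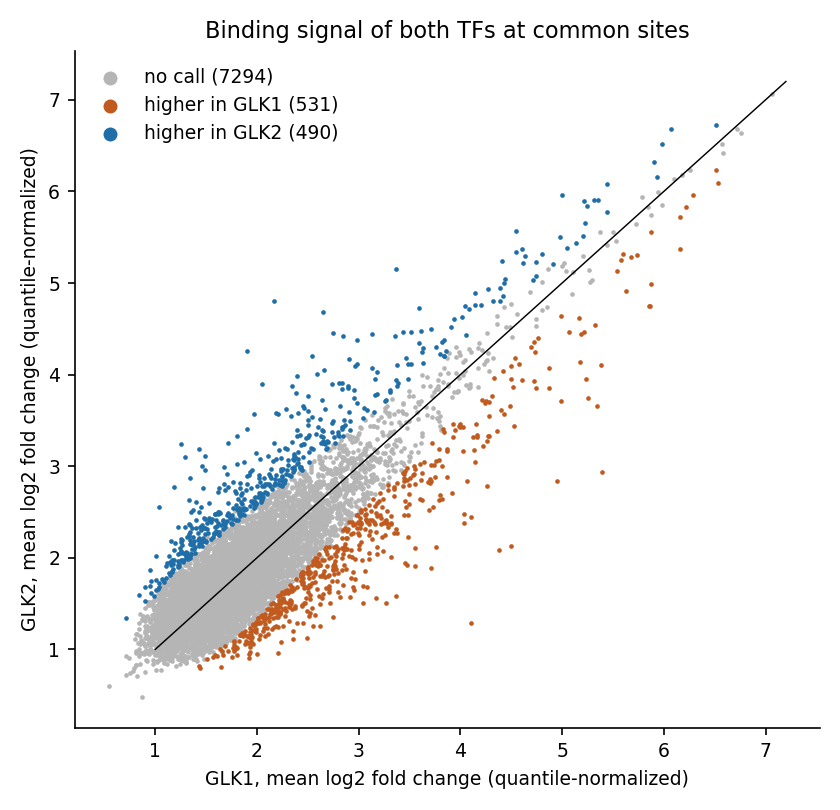
Mean log2 fold change over both libraries of GLK1 (x axis) and of GLK2 (y axis) at the 8315 common sites, after quantile normalization; each point is a site, orange if higher in GLK1 (531), blue if higher in GLK2 (490), grey if not called, and the line marks equal values. The called sites leave the line on both sides over the whole range of strengths, with single sites more than 2 units off it.

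The study's table of target genes, which pairs a gene with 1 GLK1 and 1 GLK2 summit, was at hand for 798 genes and was used for the names only. For 763 of them both summits belonged to 1 common site, which gave 595 named sites. These sites were chosen by the study for their binding in these samples and are strong, and 38.0% of them were called, 128 (21.5%) higher in GLK1 and 98 (16.5%) higher in GLK2. Their ranks in the whole lists did not overlap at 68.2%, with both GLK1 ranks better at 40.2% and both GLK2 ranks at 28.1%. After the shift to the same median 237 of the 595 were higher in GLK1 and 26 in GLK2, with the median log2 difference at 0.33 in place of 0.07, and without limma's mean-variance trend 68 and 39 were. Counts of listed genes are to be read against the counts of the same setting, and also against the strength of the sites. Of the common sites after place 100 and up to 500, 42% were called, against 61% of the best 100. The lists differed in strength. The antenna sites ranked between 1 and 150 in every library, and most sites of receptor-like kinase genes ranked far lower. Whether a list was called more often than other sites of its strength was not tested.

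The 10 named sites of best mean rank were among the first 17 places of all 4 lists. LHCB1.3, a gene of the main antenna protein of photosystem II, had the highest fold change in all 4 libraries (210.2, 181, 93.6 and 88.6, in the order GLK1 replicates 1 and 2, GLK2 replicates 1 and 2, which is kept below). LHCB1.1, LHCB1.2 and LHCB1.3 are near-identical neighbours, so the share of reads between them is uncertain. PSAL, a photosystem I subunit, followed with ranks 4, 2, 5 and 2. The site between AT5G19930 and AT5G19940 had ranks 2, 3, 4 and 4, that of LHCA4 3, 8, 6 and 7, that of BBX15 5, 5, 8 and 8, and that of AT1G10657 9, 12, 11 and 10, and none of these was called. Among the 10 strongest sites, HCF107, whose product is needed for the photosystem II transcript psbH, stood higher in GLK2 (ranks 6, 7, 3 and 3; log2 difference −0.21, adjusted p = 0.0191). It had larger fold changes in GLK1 nonetheless, and after the shift to the same median it was called higher in GLK1 (0.51). LHCB2.1 was higher in GLK1 (0.29, adjusted p = 0.00258). The widest gaps among the 10 were those of CRY1, the gene of a blue light receptor, and of COL1. CRY1 had fold changes of 124, 113, 59.7 and 49.6 (ranks 8, 4, 12 and 17; 0.44 ± 0.07 SE, adjusted p = 0.000123). COL1 had 94.8, 71.9, 85.5 and 73.4 (ranks 14, 17, 2 and 5; −0.62 ± 0.07, adjusted p = 2.86e-07), and its deposited fold changes overlapped between the TFs.

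Among the named sites higher in GLK1, the largest difference was at AT1G76920, an F-box protein gene (position 28892175 of chromosome 1, in its 5′ UTR). Its fold changes were 38.4 and 34.1 in GLK1 against 6.78 and 6.72 in GLK2 (log2 difference 2.103 ± 0.12, adjusted p = 8.00e-13). It held places 75 and 72 in the GLK1 lists and 861 and 782 in those of GLK2. The site shared by AT5G35480 and MRU1 followed (48.1, 49.2, 10.1 and 12.3; 1.69), then that of AT4G12000 and AT4G12005 (19.0, 18.9, 5.62 and 4.603; 1.66). CRT1a, the gene of a calreticulin that binds calcium in the endoplasmic reticulum, had 23.0, 17.4, 5.42 and 5.17 (1.66). APR2, the gene of an enzyme of sulfate reduction, had 25.04, 14.7, 5.64 and 5.19 (1.55). At each of these 5 sites the 4 values fell into 2 separate pairs. The other 5 of the 10 largest were AT2G20670 (1.51), AT1G68360, a C2H2 zinc finger gene (1.48), AT5G59480 (1.28), GolS3, a galactinol synthase gene of raffinose synthesis (1.28), and AT3G60540 (1.27). The sites were picked for this difference, and at all 10 both GLK1 fold changes were more than 2 times both of GLK2.

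Among the named sites higher in GLK2, the largest difference was at the non-coding RNA gene AT4G13495 (position 7842867 of chromosome 4). Its fold changes were 12.9 and 9.91 in GLK1 against 32.9 and 28.6 in GLK2 (log2 difference −1.79 ± 0.11, adjusted p = 2.85e-12). GASA6, a gene of the gibberellin-responsive GASA peptides, had 9.57, 7.52, 18.2 and 17.2 (−1.39). AT1G07480 had 7.77, 5.62, 14.7 and 13.8 (−1.39), and EXPB3, a beta-expansin gene, had 8.45, 7.52, 15.4 and 15.2 (−1.27). The site of AT1G74460 and AT1G74470 had 14.7, 12.5, 25.1 and 20.4 (−1.14). AT1G74470 encodes geranylgeranyl reductase, which makes the phytyl tail of chlorophyll. The remaining 5 were AT1G26761 (−1.14), AGF2, an AT-hook protein gene (−1.10), AT5G38850 (−1.09), AT4G33467 (−1.07) and HEME1 (−1.02), an enzyme of the tetrapyrrole pathway. The sites were picked for this difference, and at all 10 both GLK2 fold changes were above both of GLK1.

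The genes of chlorophyll biosynthesis stood higher in the GLK2 lists. Of 10 listed genes with a named site, 7 were higher in GLK2, 0 higher in GLK1 and 3 not called, with a median log2 difference of −0.64, against −0.003 over all common sites and 0.07 over the named sites. After the shift to the same median 3 were higher in GLK2 (HEME1, CHLM and PPOX1), 3 higher in GLK1 (HEMA1, CHLH and CAO) and 4 not called, with a median of −0.18, and without the trend 5 were higher in GLK2 and 0 in GLK1. HEME1, the gene of a uroporphyrinogen decarboxylase, had fold changes of 13.0 and 11.2 in GLK1 against 20.8 and 17.0 in GLK2 (−1.02 ± 0.12, adjusted p = 7.38e-07). CHLM, the gene of the methyltransferase that acts on Mg-protoporphyrin, had 29.8 and 24.5 against 37.7 and 38.8 (−1.02 ± 0.09, adjusted p = 4.52e-09). Its 4 values do not overlap, and its site is the one with CTTATC printed above. HEMA1, which encodes the glutamyl-tRNA reductase at the start of the pathway, had 75.5 and 71.0 against 46.9 and 40.5 (0.13 ± 0.08, adjusted p = 0.294). CHLH, the large subunit of Mg chelatase, had 77.9 and 65.1 against 47.1 and 44.9 (0.01, adjusted p = 0.955). HEMA1 and CHLH had the highest GLK1 fold changes of the 10 and held nearly the same place in all lists (19 to 31).

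The other 5 genes called were PPOX1 (protoporphyrinogen oxidase, −0.95), GUN4, an activator of Mg chelatase (−0.76), CRD1, the cyclase that forms the fifth ring (−0.66), and the protochlorophyllide reductases PORC (−0.61) and PORB (−0.56). CAO, which converts chlorophyll a to b, was not called (−0.09). GUN4, CRD1, PORC and PORB lost the call after the shift to the same median, where they were between −0.27 and −0.001. Of the 6 genes of this list that the table does not name, 2 had a common site inside or within 1.5 kb upstream, and both of these sites were higher in GLK2. They were PORA, the third protochlorophyllide reductase (5.95, 8.25, 14.4 and 11.5; −1.16, adjusted p = 1.66e-05), and HEME2 (2.98, 2.77, 5.13 and 5.25; −0.89, adjusted p = 0.00401). The groups did not overlap in either.

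The B-box TF genes, which include the CONSTANS-like regulators of flowering and several regulators of greening, went mostly the other way. Of 14 with a named site, 8 were higher in GLK1, 2 higher in GLK2 and 4 not called, with a median of 0.37. After the shift to the same median 10 were higher in GLK1 and 0 higher in GLK2 (median 0.88), and without the trend 2 and 0. CO (CONSTANS), which promotes flowering in long days, had 19.9 and 18.9 in GLK1 against 7.55 and 6.06 in GLK2 (1.22 ± 0.15, adjusted p = 5.93e-07). COL4 had 69.7 and 53.2 against 26.3 and 24.4 (0.71 ± 0.09, adjusted p = 6.33e-07). BBX29, COL9, BBX28, BBX14, COL3 and BBX16 were higher in GLK1 by 0.34 to 0.63. The 2 genes higher in GLK2 were COL1 (above) and COL2, with 19.8, 15.3, 19.1 and 20.8 (−0.61 ± 0.12, adjusted p = 0.000586), and both lost the call after the shift (0.07 and −0.19). CO and COL1 are neighbours, with sites at 5172852 and 5178231 of chromosome 5, and their sites were called in opposite directions. Of 5 further genes of this list with a common site outside the table, COL5 (−0.72) and BBX25 (−0.55) were higher in GLK2.

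**Figure D3:**
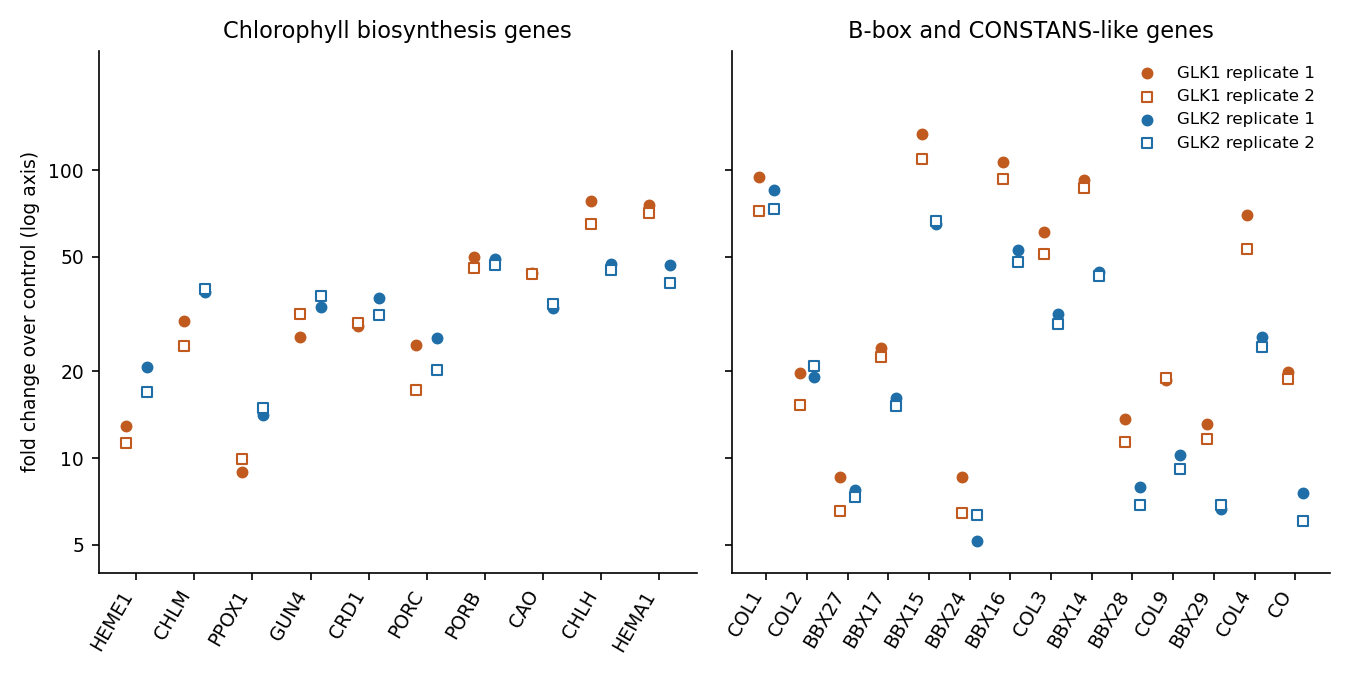
Deposited fold change over the control (y axis, log axis) in each library at the sites of 10 chlorophyll biosynthesis genes (left) and 14 B-box genes (right), ordered by the log2 difference; orange is GLK1 and blue GLK2, filled circles are replicate 1 and open squares replicate 2. On the left the blue points lie above the orange ones from HEME1 to CRD1 and below them from CAO to HEMA1; on the right the orange points lie above from BBX16 to CO.

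The antenna genes included the strongest site of all and were split. Of 17 genes (16 sites, since LHCB1.4 and LHCB1.5 share one), 5 were higher in GLK2 and 2 higher in GLK1 (median −0.04), and after the shift to the same median 0 were higher in GLK2 and 11 higher in GLK1 (median 0.64). Without the trend 2 were higher in GLK2 and 1 in GLK1. LHCA3 (48.9, 38.6, 51.9 and 45.4; −0.68 ± 0.08), LHCA2 (−0.60) and LHCA1 (−0.44), antenna genes of photosystem I, stood higher in the GLK2 lists, whereas LHCA4 was not called (0.06). LHCB1.2 (−0.67) and LHCB1.1 (−0.43) also stood higher in GLK2. LHCB2.3 was higher in GLK1 (49.8, 44.0, 21.4 and 18.7; 0.78 ± 0.10, adjusted p = 7.32e-07), as was LHCB2.1, while LHCB2.2 was not called (−0.04).

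Of 24 photosystem genes, 8 were higher in GLK2 and 7 higher in GLK1 (median −0.02), and after the shift to the same median 0 and 14 (median 0.44). Without the trend 1 was higher in GLK2 and 2 in GLK1. CURT1B, which bends thylakoid membranes and is no photosystem subunit, was among the 7 (0.69). PSAD1, a photosystem I subunit gene, was at one end with 21.7, 16.9, 23.4 and 23.1 (−0.70 ± 0.11, adjusted p = 3.85e-05). PSBQ2, of the oxygen-evolving complex, was at the other with 100.4, 80.8, 35.8 and 35.9 (0.78 ± 0.08, adjusted p = 2.40e-08). Genes for the same subunit did not always go together. For 5 subunits both genes had a site, which were compared after their values had been seen. PSAD1 and PSAD2 (−0.33) were both higher in GLK2, as were PSAE2 (−0.42) and PSAE1 (−0.22), and PSBQ2 and PSBQ1 (0.61) were both higher in GLK1. The deposited fold changes of PSAE2 (82.7, 66.6, 62.3 and 60.8) and PSAE1 (82.9, 67.2, 59.0 and 55.7) were nonetheless larger in GLK1. PSAH1 was higher in GLK1 (70.6, 53.6, 36.6 and 30.4; 0.40) and PSAH2 in GLK2 (27.2, 22.9, 29.2 and 25.7; −0.58). PSBO1 was likewise higher in GLK1 (0.33) and PSBO2 in GLK2 (−0.48). PSAH2, PSBO2 and PSAD1 lost their call after the shift to the same median, PSAD2, PSAE2 and PSAE1 changed direction (0.24, 0.28 and 0.39), and the difference between PSAH1 and PSAH2 was not tested.

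Of 6 genes of electron transport and carbon fixation, the protein kinase gene STN7 (−0.76) and the ATP synthase subunit gene ATPD (−0.48) were higher in GLK2 and the plastocyanin gene PETE2 (0.39) in GLK1. After the shift STN7 was still higher in GLK2, and PETE2 and FD2 were higher in GLK1. PETE1, the second plastocyanin gene, was not called (−0.32, adjusted p = 0.0845). The counts after the shift were 2 higher in GLK1 and 1 in GLK2 (median 0.24, from −0.25), and without the trend 0 and 1. PETC, the Rieske protein gene of the cytochrome complex, is outside the table and had a common site higher in GLK2 (−0.63, adjusted p = 0.0127).

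Of 14 genes of light signalling and the clock, 2 were higher in GLK1 and 1 in GLK2 (median −0.004), after the shift 5 and 0 (median 0.35) and without the trend 1 and 0. GI (GIGANTEA), a clock-associated gene of the flowering pathway upstream of CO, had 27.6 and 20.9 in GLK1 against 9.45 and 9.53 in GLK2 (0.97 ± 0.13, adjusted p = 2.41e-06), and CRY1 is described above. CDF1, which encodes a repressor of CO, had 19.1, 14.3, 15.6 and 15.8 (−0.37 ± 0.12, adjusted p = 0.0471), but its deposited fold changes overlapped and its difference was 0.08 after the shift. PIF4, PIF5 and PIF7, the genes of phytochrome-interacting factors in the table, were between −0.07 and 0.12 and not called, though PIF5 and PIF7 were higher in GLK1 after the shift. Of 8 further genes of this list with a common site outside the table, the clock gene PRR7 (0.96, adjusted p = 0.000814) was higher in GLK1, and PIF3 (−0.73, adjusted p = 0.0175) and the phytochrome gene PHYA (−0.68, adjusted p = 0.0222) were higher in GLK2. Of 15 genes of auxin and cytokinin response, 4 were higher in GLK1 and 0 higher in GLK2 (median 0.10), 6 and 0 after the shift (median 0.33) and 2 and 0 without the trend. They were CRF4 (24.8, 18.9, 8.88 and 8.26; 1.00 ± 0.13), the cytokinin response regulators ARR4 (0.86) and ARR5 (0.37), and the auxin-responsive IAA19 (0.58). The lowest of this list was the site of SAUR15 (−0.39, not called). Of 19 genes annotated with receptor-like kinase terms, SDF2 (0.66), which encodes a protein of the endoplasmic reticulum and not a kinase, was higher in GLK1 and RLK1 (−0.56) in GLK2. Of 13 genes of PPR and TPR proteins, which mostly act on organelle RNA, AT5G17270 (0.73) was higher in GLK1, and AT1G19720 (−0.55) and HCF107 in GLK2. The gene nearest to the AT5G17270 site is NAC086, 311 bp downstream of it. After the shift 4 of the kinase list were higher in GLK1 and 0 in GLK2, and RLK1 lost its call. In the PPR and TPR list these counts were 5 and 0, and AT1G19720 lost its call (−0.12). Without the trend they were 0 and 0 for the kinases and 1 and 0 for PPR and TPR proteins.

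**Figure D4:**
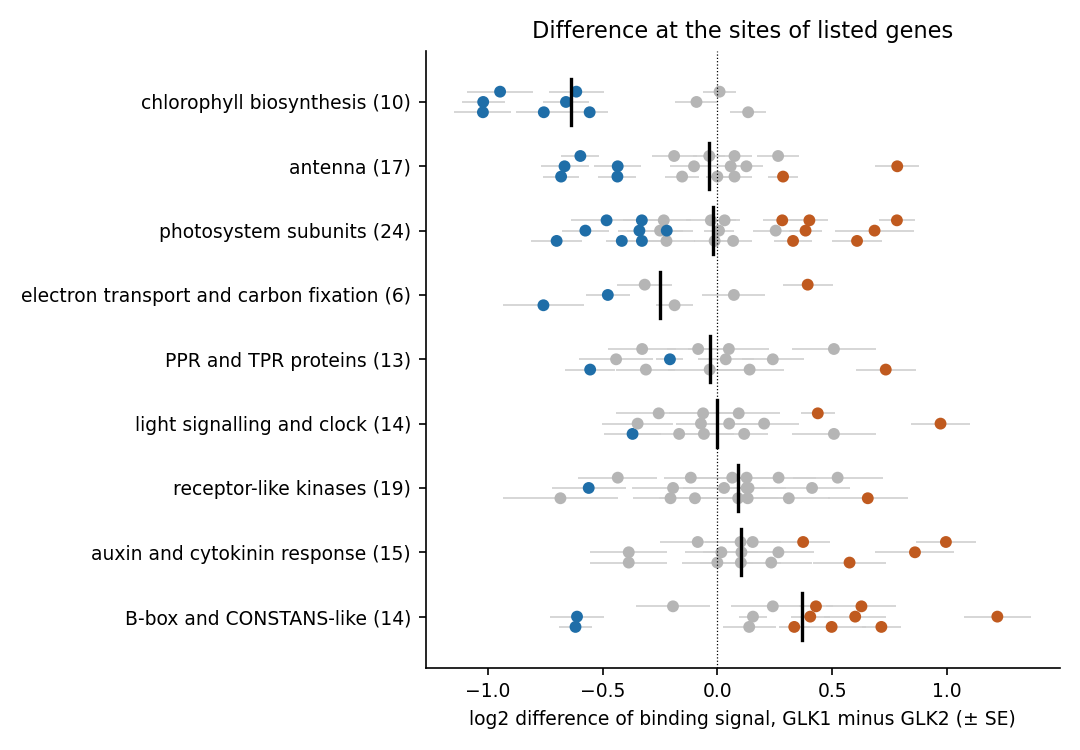
Log2 difference of the quantile-normalized signal, GLK1 minus GLK2 (x axis, bars ± SE), at the sites of the listed genes (number in parentheses); each point is a gene, orange if its site is higher in GLK1, blue if higher in GLK2 and grey if not called, and black bars are medians. The median runs from −0.64 in chlorophyll biosynthesis to 0.37 in B-box and CONSTANS-like genes; after the shift to the same median these medians are −0.18 and 0.88, and those of the antenna and photosystem genes go from −0.04 and −0.02 to 0.64 and 0.44.

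The sites that separated the TFs differed in the DNA words they held. GLK words were in 31.1% of the windows of all common sites (75 bp to either side), against 24.4% of windows 1 kb away and 24.0% of windows just upstream of the start of the 27444 protein-coding genes. They were in 40.7% (36.6 to 44.9%) of the sites higher in GLK1 and 48.4% (44.0 to 52.8%) of those higher in GLK2, and in 29.2% of those not called. Part of this goes with strength, as 39.9% of the uncalled sites among the 2000 strongest had one. The G-box was in 23.0% (19.6 to 26.7%) of the sites higher in GLK1 and 13.1% (10.4 to 16.3%) of those higher in GLK2, with 14.8% among those not called, 2.36% in windows 1 kb away and 4.80% at the starts of genes. Among sites with a fold change and −log10 q of at least 5 the G-box shares were 23.1% and 20.9%.

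All 2080 words of 6 letters (both strands together) were then counted, and the most unequal ones were taken up after their values were seen. GATAAG was the word with the largest excess at the sites higher in GLK2. It was in 34.9% (30.8 to 39.2%, 171 of 490) of them, in 8.85% (6.72 to 11.6%, 47 of 531) of the sites higher in GLK1 and in 12.2% of those not called, against 7.74% in windows 1 kb away and 7.67% at the starts of genes. Most of the next words in that order, such as AGATAA with 34.9% against 9.98%, overlap GATAAG when shifted by a base or more. Within the 2000 strongest sites the shares were 39.2% of those higher in GLK2, 13.1% of those higher in GLK1 and 17.6% of those not called. At the sites higher in GLK2 it occurred 3.14, 2.61 and 2.94 times per kb in successive steps of 25 bp up to 75 bp from the middle of the site, the window in which it was picked, and 1.36 and 0.78 times up to and beyond 150 bp. At those higher in GLK1 it occurred 0.565 times within 25 bp and 0.545 times beyond 150 bp. Sites of a single TF were not used in the count of words. GATAAG was in 12.8% (11.7 to 13.9%) of the 3755 GLK2 sites without GLK1 and in 6.84% (4.74 to 9.76%) of the 395 GLK1 sites without GLK2. With no summit of the other TF within 1000 bp, it was in 15.3% (13.8 to 17.0%) of 1961 GLK2 sites. The same share was 4.71% (1.85 to 11.5%) of 85 GLK1 sites. The 12.8% was near the 12.2% of common sites not called, though the GLK2 sites without GLK1 were weaker than common sites. Both GLK2 shares were far below the 34.9% of common sites higher in GLK2, so an excess of that size was not seen there.

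ACCAAT was the word with the largest excess at the sites higher in GLK1 (27.7% against 14.3%), followed by ACGTGG and CCAATC. The shorter CCAAT was in 57.1% (52.8 to 61.2%) of the sites higher in GLK1, 38.8% (34.6 to 43.2%) of those higher in GLK2 and 34.9% of those not called, against 28.2% in windows 1 kb away and 32.0% at the starts of genes. Within 25 bp of the middle of the site it occurred 5.73 times per kb at the sites higher in GLK1 and 3.55 times at those higher in GLK2. In the sites of 1 TF alone its share was 29.9% (GLK1) and 31.7% (GLK2), so that the excess of CCAAT was not seen there. CCAAT is part of both ACCAAT and CCAATC, so its share is not separate from theirs. A match describes the sequence only and does not show that a factor binds it.

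**Figure D5:**
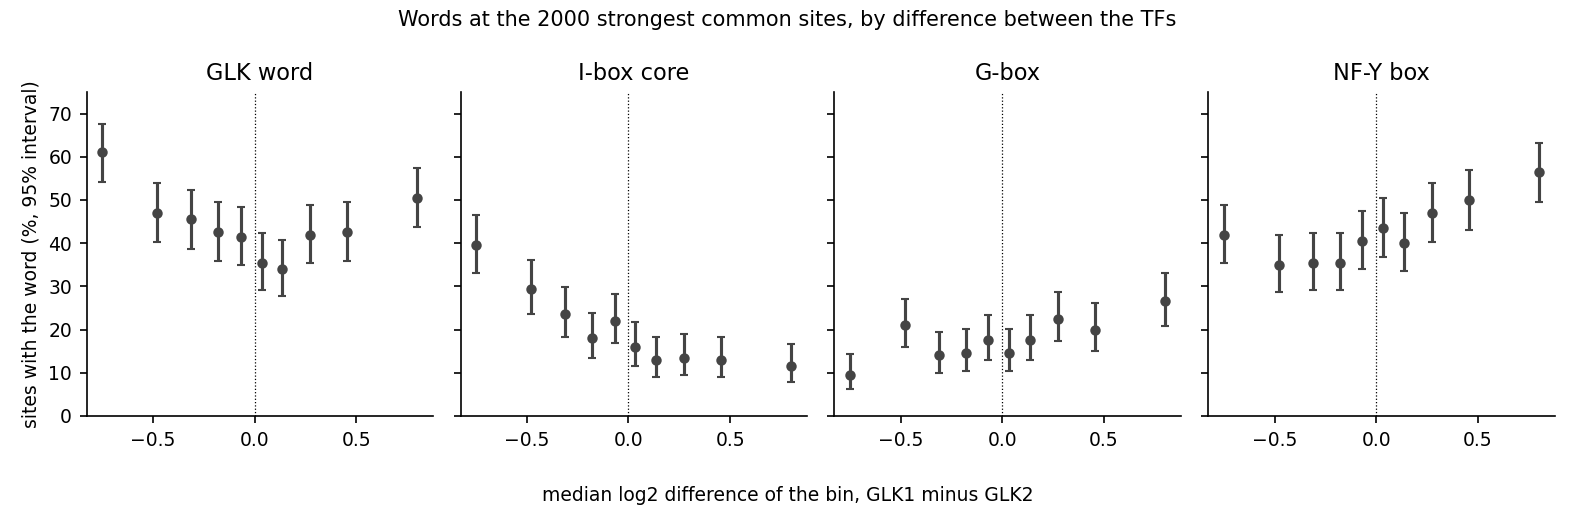
Percentage of sites with each word (y axis) in 10 bins of 200 of the 2000 strongest common sites, placed by the median log2 difference of the bin, GLK1 minus GLK2 (x axis); bars are 95% Wilson intervals. From the bin highest in GLK2 to the bin highest in GLK1 the I-box core goes from 39.5% to 11.5%, the G-box from 9.5% to 26.5% and the NF-Y box from 42.0% to 56.5%, while the GLK word is most frequent in both end bins.

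Among the listed genes, GATAAG was in 15 of the 24 photosystem sites, 5 of the 16 antenna sites and 3 of the 14 B-box sites. It was also in 3 of the 10 chlorophyll sites (CHLM, GUN4 and PORC). Its share over all common sites was 13.3%. CCAAT was in 15 of the 16 antenna sites, 7 of the 10 chlorophyll sites, 15 of the 24 photosystem sites and 9 of the 14 B-box sites. Its share was 36.6% over all common sites. Among the uncalled sites of the 2000 strongest, GATAAG was in 17.6% and CCAAT in 39.5%. The words did not follow the direction in the photosystem and B-box lists. Of the photosystem genes higher in GLK1, PSBQ1, PSBQ2, PSAK, PSBO1 and PSAH1 held GATAAG, and PSAG and CURT1B did not. Of those higher in GLK2, PSAD1, PSAD2, PSBO2 and PSBTN held it, and PSAH2, PSAE1, PSAE2 and PSBW did not. COL1 and COL2, higher in GLK2, held CCAAT. Of the B-box genes higher in GLK1, BBX14, BBX16, COL4 and CO held it, and COL3, COL9, BBX28 and BBX29 did not. HEME1, highest in GLK2 among the chlorophyll genes, held no GATAAG.

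The position relative to genes separated the TFs little. Of the sites higher in GLK1, 51.2% (47.0 to 55.5%) were within 1.5 kb upstream of a transcriptional start site, 24.9% inside a protein-coding gene and 23.9% elsewhere. A site that was both upstream of one gene and inside another was counted as upstream only. Of those higher in GLK2 the shares were 55.5% (51.1 to 59.9%), 25.3% and 19.2%, and over all common sites 52.5%, 24.3% and 23.2%. The intervals of both groups overlapped in each class. The GLK2 sites without GLK1 were more often inside a gene and not upstream of any (33.6%, 32.1 to 35.1%) than common sites were (23.4 to 25.3%). Of the GLK1 sites without GLK2 this share was 28.9% (24.6 to 33.5%), an interval that overlaps both of these.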

How the data were processed

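The authors aligned the reads to TAIR10 with Bowtie2 (version 2.3.2 in the submitters' processing notes), filtered them and removed duplicates with SAMtools, and called summits in each library with MACS2 (2.2.1), each resized to 150 bp. The control is not given in the sources used here. The deposited files hold, per summit, a fold change over the control (a ratio) and −log10 p and q values, and no read counts, so the depth of each library cannot be read from them. The files of the other libraries were not used here.

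Summits were paired as mutual nearest neighbours within 149 bp. At common sites, log2 fold changes (pseudocount 0) were quantile-normalized across the 4 libraries and tested with limma 3.58.1 (R 4.3.3, mean-variance trend, no block), with Benjamini-Hochberg adjustment over all 8315 sites and a threshold of 0.05. All adjusted p values in the text are from this fit, which was tested on simulated data. Replicates were on separate plants according to the study. Ranks are places in the whole list of a library by fold change, except where ranks among the common sites are named. Positions, promoters (1500 bp upstream) and sequences are from RefSeq's TAIR10.1 release, whose 5 chromosomes are those of TAIR10. Wilson intervals are at 95% and cover counting error only. Alternatives were the distance (75 bp), 1 summit per peak region, a fold change and −log10 q of at least 5, median-centring, −log10 q as signal, a pseudocount of 1, a replicate block, no trend, each library left out, a window of 50 bp and a promoter of 1000 bp. The counts of GATAAG and CCAAT, and the list counts under alternatives, were added after seeing the data.

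Genes were named through the summits in the study's target table. Named were the 10 sites of best mean rank, the 10 largest differences in each direction among called sites, members of gene lists, the 5 best sites of 1 TF alone, and GLK1 and GLK2 themselves. More list members are given than the 4 per list first foreseen, and paralog pairs were picked after their values were seen. The members and lists were chosen with earlier results of these data known.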

Additional observations from a re-analysis of the deposited data

How the results depend on the processing

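Site counts and shares moved with the definition of a site and with the libraries used. With a fold change and −log10 q of at least 5, there were 1524 GLK1 and 1485 GLK2 sites, 67.1% and 68.9% of them common, and 232 GLK2 sites without GLK1. Of 1023 common sites, 195 were then higher in GLK1 and 187 in GLK2, and ranks did not overlap at 320 and 354. With 1 summit per peak region there were 10259 GLK2 sites, shares of 78.8% and 55.1%, and 2403 GLK2 sites without GLK1. Within 75 bp the shares were 69.5% and 44.2%, with 771 GLK1 sites without GLK2, and any site in reach gave 85.6% for GLK1. Leaving out 1 library gave shares of 66.2 to 90.3% (GLK1) and 38.7 to 66.5% (GLK2), 876 to 1909 and 5102 to 8464 sites of 1 TF, and 295 to 460 and 239 to 449 sites higher in GLK1 and GLK2. A lone library was then assumed to vary like the other TF, and its sites had no replicate. Without the mean-variance trend 311 sites were higher in GLK2. The cause of these changes was not tested.

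Replicate numbers were not shown to pair the libraries (correlation of replicate differences 0.0328 over the 8315 sites). With the replicate block, 604 sites were higher in GLK1 and 579 in GLK2, including all of the 531 and 490.

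Median-centring, which keeps the wider range of GLK1, was the alternative that turned directions. Among named sites called before or after it, the log2 difference became positive at LHCB1.3 (1.11, from 0), HCF107 (0.51), COL1 (0.068), PSAD2 (0.24), CAO (0.38), FD2 (0.32), PSBR (0.45), LHCB2.2 (0.65), PSAE2 (0.28), PSBW (0.16), LHCB4.2 (0.39), PSBTN (0.10), LHCA1 (0.085), PSAE1 (0.39), LHCB3 (0.49), PIF7 (0.38), CDF1 (0.083) and PSAN (0.43). Others, such as PIF4 (0.33), PETE1 (0.16) and LHCB5 (0.31), also turned positive but were called in neither. These changes were followed at 134 named sites and not at all of the 595. Of the 134, 83 were called in the main fit. Of these 83, 43 kept their call in every setting run and 9 changed direction in at least 1.

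With windows of 50 bp, in the order higher in GLK1, higher in GLK2 and all, GLK words were in 33.5, 39.6 and 23.5% of sites, GATAAG in 5.84, 25.3 and 8.85% and CCAAT in 47.3, 29.6 and 27.3%, and CACGTG in 18.6, 10.4 and 11.4%. With the minimum of 5, GLK words were in 56.9, 58.8 and 48.3%, GATAAG in 16.4, 39.0 and 21.8%, CACGTG in 23.1, 20.9 and 18.8% and CCAAT in 58.5, 51.9 and 47.1%, so that the CACGTG shares of both groups were then closer together. After median-centring, CACGTG was in 8.43% and CCAAT in 33.4% of the sites higher in GLK2, and in 23.0% and 55.8% of those higher in GLK1.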

Other observations

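The widest differences of all were at sites without a gene in the study's table, which are named here by the nearest transcriptional start site and were picked for their size. The site in the 5′ UTR of PGGT-I, a gene of protein prenylation, had fold changes of 23.0 and 17.4 in GLK1 (ranks 155 and 181) against 2.3 and 2.57 in GLK2 (ranks 14547 and 10393), a log2 difference of 2.82. The sites near JRG21 (60.6, 41.9, 7.85 and 6.59; 2.46), AT3G11490 (29.5, 23.5, 4.08 and 4.62; 2.37) and AGL21, a MADS-box gene (28.9, 20.6, 4.15 and 4.29; 2.29), also stood above the largest named difference in GLK1. In the other direction, the site upstream of AT4G01460 had 4.04 and 5.14 in GLK1 (ranks 4071 and 1567) against 24.3 and 23.9 in GLK2 (ranks 85 and 81), a log2 difference of −2.63. It was followed by the sites near the B-type cyclin gene CYCB1;4 (4.5, 3.14, 15.8 and 16.9; −2.36) and near AT4G13575 (7.07, 6.03, 23.4 and 21.0; −2.04).

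Some loci held a site of each TF side by side. Upstream of AT4G16563, a GLK1 site without GLK2 (position 9333108 of chromosome 4, fold changes 10.8 and 8.11) and a GLK2 site without GLK1 (position 9332882, 6.64 and 7.14) were both among the best 5 of their kind. Upstream of EXPB3, the common site that was higher in GLK2 (446 bp from the start) was accompanied by a GLK1 site without GLK2 (175 bp from the start, 5.99 and 6.10).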
